A study of Homo sapiens with 15 samples.

Results

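The NF-kappaB subunits and the genes of their feedback loop were described in cell lines of triple negative breast cancer. The members were the entries of the deposited table with the symbols NFKB1, NFKB2, REL, RELA, RELB, NFKBIA, NFKBIE, NFKBIZ, TNFAIP3 and BIRC3, and all 10 were found among 33158 genes. The 15 transcriptomes were 3 libraries each of cancer stem cells (CSCs) and of the remaining cells (non-CSCs) sorted from the lines SUM149PT and HCC1937, and 3 libraries of SUM159PT. CSCs were sorted as cells with CD44 and with little or no CD24 on their surface, and SUM159PT, used unsorted, was treated as CSCs. Values are FPKM, fragments scaled by transcript length and library size, so that levels of different genes can be set side by side, with the limit that SUM159PT levels also varied with the GC content of transcripts. Nothing says that the 3 libraries of a group came from separate cultures, so p-values measure only the spread between these libraries, which may be technical.

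NF-kappaB factors are dimers of Rel-family proteins that wait in the cytoplasm, bound to inhibitors of the IkappaB family. Receptors for tumour necrosis factor, interleukins or microbial products activate a kinase complex that marks the inhibitor for destruction in the canonical pathway, whereas the non-canonical pathway works through processing of the NFKB2 precursor and its partner RELB. The genes for several inhibitors, for the ubiquitin-editing enzyme TNFAIP3 and for the ubiquitin ligase BIRC3 are textbook targets of the factors themselves. For the inhibitors and TNFAIP3 this closes a negative feedback loop. The pathway is widely studied in basal-like breast cancer cells.

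The promoters of 5 members that rose or fell between fractions of SUM149PT are shown because these genes are textbook targets that moved in opposite directions there. They are the 250 bases before a start from the RefSeq promoter table (GRCh38.p14), 5′ to 3′ on the strand of the gene, and capitals mark matches to the kappaB consensus decamer on either strand, with overlapping matches joined. For NFKB1 and NFKBIZ, each with more than 1 start in the table, the start at the lowest coordinate is shown.
BIRC3, chr11:102317234-102317483, forward strand: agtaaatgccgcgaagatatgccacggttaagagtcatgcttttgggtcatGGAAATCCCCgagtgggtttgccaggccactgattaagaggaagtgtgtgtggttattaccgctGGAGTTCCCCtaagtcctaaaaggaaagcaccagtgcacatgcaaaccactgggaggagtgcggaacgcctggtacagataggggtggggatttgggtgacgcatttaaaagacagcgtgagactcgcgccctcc
NFKB1, chr4:102501109-102501358, forward strand: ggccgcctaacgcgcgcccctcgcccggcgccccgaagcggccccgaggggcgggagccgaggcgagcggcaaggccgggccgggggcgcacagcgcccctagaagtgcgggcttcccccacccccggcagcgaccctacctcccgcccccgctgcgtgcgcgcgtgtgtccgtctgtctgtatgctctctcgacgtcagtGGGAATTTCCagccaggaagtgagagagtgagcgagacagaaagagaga
NFKBIA, chr14:35404750-35404999, reverse strand: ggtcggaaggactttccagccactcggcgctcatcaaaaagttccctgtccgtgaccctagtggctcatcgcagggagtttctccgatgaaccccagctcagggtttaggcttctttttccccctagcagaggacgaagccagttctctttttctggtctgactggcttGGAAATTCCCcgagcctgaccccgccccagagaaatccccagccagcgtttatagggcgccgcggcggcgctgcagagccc
NFKBIZ, chr3:101827740-101827989, forward strand: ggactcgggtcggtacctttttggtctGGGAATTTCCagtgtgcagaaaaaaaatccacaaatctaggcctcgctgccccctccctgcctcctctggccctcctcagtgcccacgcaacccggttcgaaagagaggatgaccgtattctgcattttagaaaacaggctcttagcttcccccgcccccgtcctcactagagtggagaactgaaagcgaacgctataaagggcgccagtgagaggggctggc
TNFAIP3, chr6:137867009-137867258, forward strand: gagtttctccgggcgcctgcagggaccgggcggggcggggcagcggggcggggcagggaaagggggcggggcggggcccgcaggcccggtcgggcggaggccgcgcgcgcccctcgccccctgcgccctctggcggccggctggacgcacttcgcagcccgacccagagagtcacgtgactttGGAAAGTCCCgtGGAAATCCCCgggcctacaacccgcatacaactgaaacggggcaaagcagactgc
The table matched 13 promoters of 8 members by symbol, with RELB and NFKBIE without an entry. A match was found in 9 of these 13 promoters, for 7 members, and in 9.96% of all 35116 promoters of the same length. BIRC3 had matches beginning 199 and 135 bases before the start, and TNFAIP3 had matches 67 and 55 bases before it. NFKB1 had a match 49 bases before the start, NFKBIA 81 and NFKBIZ 223. Of the 5 promoters shown, those of genes that rose and of genes that fell in SUM149PT CSCs both held matches. The other NFKB1 promoter, not shown, had none, nor did either promoter of RELA, which also fell. REL, which fell too, had a match 47 bases before the start. NFKB2, not called in SUM149PT, had matches in some of its promoters and none in another. A match describes letters in this window, not a bound site.

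RELA, which carries the main transactivation domain of the canonical dimer, was the most abundant subunit in all 5 groups. The SUM149PT libraries were at 71.3, 75.8 and 70.8 FPKM for CSCs and at 87.2, 90.04 and 89.0 FPKM for non-CSCs. Those of HCC1937 were at 40.8, 39.0 and 39.3 FPKM for CSCs and 38.4, 40.7 and 40.3 FPKM for non-CSCs. The SUM149PT fractions did not overlap, with non-CSCs higher, and the HCC1937 fractions did. SUM159PT lay between the lines at 66.03, 63.6 and 70.1 FPKM, though it came lowest after rescaling to a common sum and highest after upper quartile scaling.

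NFKB1, the precursor of the DNA-binding partner of RELA, was at 24.999, 25.02 and 25.7 FPKM in SUM149PT CSCs, against 9.10, 9.49 and 10.1 FPKM in the non-CSCs. HCC1937 had 20.1, 18.5 and 19.6 FPKM in CSCs, against 18.4, 18.6 and 17.8 FPKM in the non-CSCs. Each CSC library of SUM149PT was above every library of the other groups, and SUM159PT was lowest at 8.58, 6.94 and 7.21 FPKM, a place it exchanged with SUM149PT non-CSCs under upper quartile scaling. REL, a transactivating subunit best known from lymphocytes, was the least abundant subunit in all 5 groups. Its SUM149PT values were 4.29, 2.78 and 4.03 FPKM for CSCs and 6.11, 5.20 and 5.03 FPKM for non-CSCs. Its HCC1937 values were 0.615, 0.854 and 0.950 FPKM for CSCs and 0.866, 0.596 and 0.870 FPKM for non-CSCs. REL was thus lower in HCC1937, where the fractions overlapped, and SUM159PT was near 0 at 0.0337, 0.134 and 0.0934 FPKM.

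NFKB2, the precursor that the non-canonical pathway processes, was at 52.9, 57.6 and 52.9 FPKM in SUM149PT CSCs, against 51.2, 54.0 and 53.9 FPKM in the non-CSCs. HCC1937 CSCs had 20.2, 17.7 and 17.9 FPKM and the non-CSCs 21.5, 25.3 and 22.5 FPKM. The fractions overlapped in SUM149PT and not in HCC1937, where non-CSCs were higher, and SUM159PT was at 41.5, 46.4 and 44.6 FPKM. RELB, the partner of processed NFKB2, was at 30.7, 33.7 and 31.2 FPKM in SUM149PT CSCs, against 21.3, 26.4 and 20.6 FPKM in the non-CSCs. HCC1937 CSCs had 16.9, 16.04 and 13.8 FPKM and the non-CSCs 16.9, 20.8 and 15.4 FPKM. RELB was the only subunit with its highest deposited level in SUM159PT, at 54.4, 57.04 and 53.1 FPKM, though SUM149PT CSCs came first after rescaling to a common sum, and its fractions overlapped in HCC1937 only.

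NFKBIA, the inhibitor that is destroyed and made again in each round of canonical signalling, was the most abundant member in all 5 groups. SUM149PT had 172.7, 176.4 and 165.7 FPKM in CSCs, against 93.1, 93.6 and 93.8 FPKM in the non-CSCs. HCC1937 had 169.9, 146.2 and 146.3 FPKM in CSCs, against 198.8, 196.1 and 165.003 FPKM in the non-CSCs. The non-CSCs of SUM149PT stood below all other libraries, the HCC1937 fractions overlapped, and SUM159PT was at 220.03, 225.4 and 197.6 FPKM. NFKBIE, a related inhibitor, was at 39.4, 46.05 and 39.9 FPKM in SUM149PT CSCs, against 39.0, 38.3 and 38.3 FPKM in the non-CSCs. HCC1937 CSCs had 8.56, 8.40 and 7.76 FPKM and the non-CSCs 11.1, 10.5 and 9.78 FPKM. HCC1937 therefore held the lowest levels of NFKBIE, neither line's fractions overlapped, and SUM159PT was at 30.1, 31.5 and 28.9 FPKM. NFKBIZ, an atypical nuclear IkappaB protein that helps switch on secondary targets, was at 60.1, 58.5 and 58.03 FPKM in SUM149PT CSCs, against 81.3, 80.9 and 73.8 FPKM in the non-CSCs. HCC1937 CSCs had 36.04, 35.03 and 36.5 FPKM and the non-CSCs 36.5, 32.9 and 35.3 FPKM. The fractions overlapped in HCC1937 only, and SUM159PT stood far below both lines at 2.18, 1.97 and 1.97 FPKM.

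TNFAIP3, the ubiquitin-editing enzyme that ends signalling from the receptor complex, was at 36.9, 36.7 and 35.3 FPKM in SUM149PT CSCs, against 48.5, 50.01 and 47.4 FPKM in the non-CSCs. HCC1937 had 63.4, 63.9 and 64.3 FPKM in CSCs, against 69.4, 72.2 and 75.2 FPKM in the non-CSCs. CSCs were lower without overlap in both lines, and SUM159PT was lowest at 6.05, 5.89 and 4.996 FPKM. BIRC3, a ubiquitin ligase of the receptor complex, was at 78.7, 74.2 and 73.7 FPKM in SUM149PT CSCs, against 21.7, 19.7 and 21.9 FPKM in the non-CSCs. HCC1937 CSCs had 11.9, 13.3 and 13.2 FPKM and the non-CSCs 14.4, 14.6 and 15.3 FPKM. SUM149PT CSCs thus stood above every other library for BIRC3, and SUM159PT was lowest at 1.41, 1.69 and 1.89 FPKM.

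**Figure D1:**
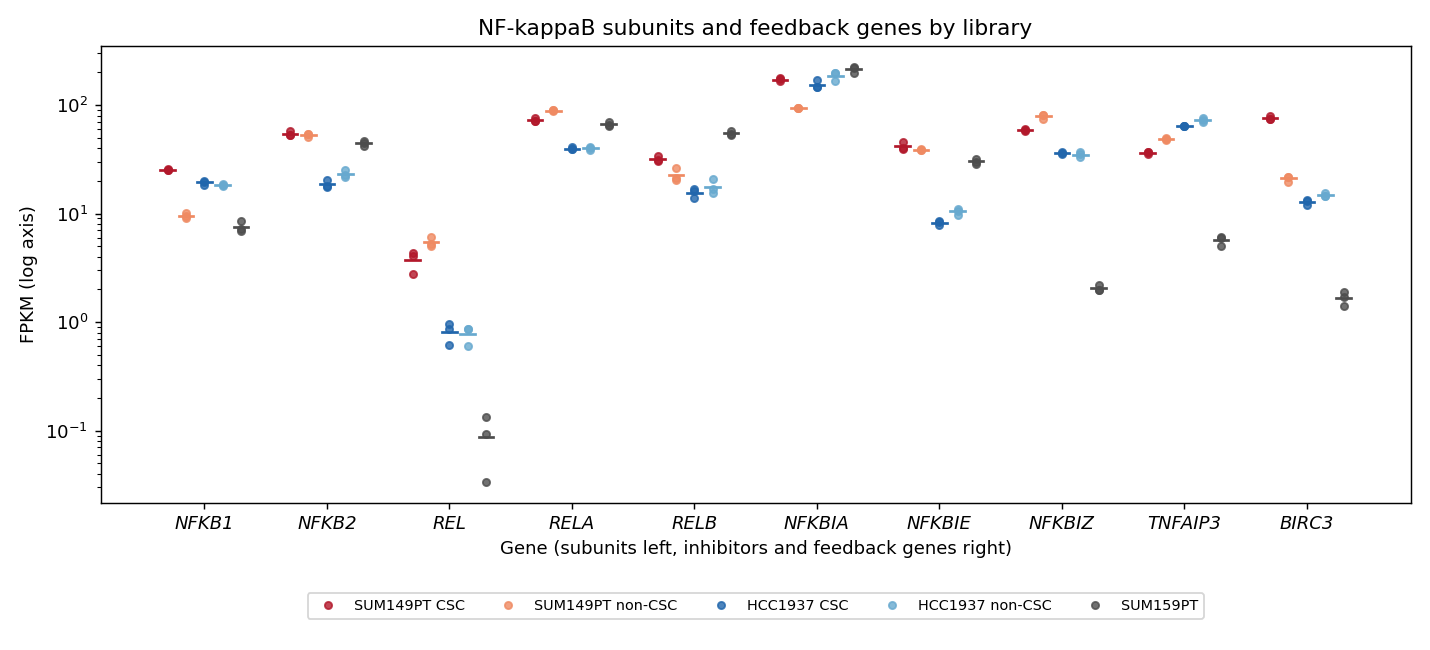
FPKM of the 10 members on a log axis, with a point for each of the 15 libraries and a bar at the mean of each group of 3. NFKBIA is the highest member in every group. The SUM149PT fractions overlap only for NFKB2 and lie furthest apart for NFKB1 and BIRC3. NFKB1, REL, NFKBIZ, TNFAIP3 and BIRC3 are lowest in SUM159PT.

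Ordered by group mean, the 10 members did not share an order. The ratio of the highest to the lowest group mean was 2.23 for RELA, 2.29 for NFKBIA, 2.93 for NFKB2, 3.33 for NFKB1, 3.52 for RELB and 5.07 for NFKBIE. It was 12.8 for TNFAIP3, 38.6 for NFKBIZ, 45.4 for BIRC3 and 62.5 for REL, each with SUM159PT lowest. The ratios are of deposited FPKM, which had a higher sum in SUM159PT, so those with SUM159PT change with scaling. SUM159PT stayed lowest for TNFAIP3, NFKBIZ, BIRC3 and REL after rescaling to a common sum and with upper quartile scaling. Between the sorted lines, SUM149PT CSCs had 5.91 times the BIRC3 mean, 5.07 times the NFKBIE mean and 4.59 times the REL mean of HCC1937 CSCs, with no overlap of libraries. TNFAIP3 went the other way, with HCC1937 CSCs at 1.76 times the mean of SUM149PT CSCs. These ratios depended on the fraction: in non-CSCs the mean of SUM149PT was 1.43 times that of HCC1937 for BIRC3, 3.69 times for NFKBIE and 7.003 times for REL. NFKB1 and NFKBIA, at 1.30 and 1.11 times in CSCs (overlapping for NFKBIA), were at 0.52 and 0.50 times in non-CSCs. Neighbours in the order overlapped most often for NFKBIA, for which only the step down to SUM149PT non-CSCs was free of overlap. The HCC1937 fractions overlapped for NFKB1, REL, RELA, RELB, NFKBIA and NFKBIZ.

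The comparison of CSCs with non-CSCs asks which genes differ between the fractions of a line. In SUM149PT, BIRC3 rose most among the members, with a log2 fold change of 1.84 ± 0.07 (SE, n = 3 and 3, adjusted p = 6.7e-06 by limma on log2(FPKM + 0.1)). NFKB1 rose by 1.39 ± 0.06 (adjusted p = 1.2e-05), NFKBIA by 0.88 ± 0.05 (adjusted p = 3.6e-05) and RELB by 0.49 ± 0.11 (adjusted p = 0.0081). RELA fell by 0.29 ± 0.06 (adjusted p = 0.0043), NFKBIZ fell by 0.42 ± 0.06 (adjusted p = 0.0015) and TNFAIP3 fell by 0.42 ± 0.05 (adjusted p = 0.00077). Fewer cells of a type and less RNA per cell cannot be told apart in such bulk libraries. REL fell by 0.56 ± 0.18 (adjusted p = 0.032), a call that was lost without the non-CSC library of replicate 1, 2 or 3 (adjusted p = 0.0945, 0.0620 and 0.05501) and under 3 other scalings, with adjusted p from 0.0140 to 0.0945 over all alternatives. Each called member was higher, or lower, in all 3 CSC libraries than in all 3 non-CSC libraries. The same held for NFKBIE, which was not called, so this separation is no further test of the calls. The share of all genes without overlap was not computed. NFKB2 had a log2 fold change of 0.04 (95% interval -0.12 to 0.19, adjusted p = 0.60) and NFKBIE of 0.11 (95% interval -0.08 to 0.31, adjusted p = 0.23), or 0.04 without the CSC library of replicate 2.

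Counted over the members in SUM149PT, 4 of 10 were higher in CSCs, beside 33.3% of the 16037 genes tested, and 4 of 10 were lower, beside 41.5%. These counts lie near the shares over all genes, and the median log2 fold change was 0.08 over the members and -0.11 over all genes. Quantile normalization turned the median over all genes to 0.103, with 6643 genes higher and 5466 lower. With a further limit of 1 on the absolute log2 fold change, NFKB1 and BIRC3 passed, 2 of 10 beside 34.9% of genes, and both also passed with an adjusted p of at most 0.0001, beside 20.5% of genes. Over all alternatives their adjusted p by limma reached 0.000567 for NFKB1 and 0.000431 for BIRC3, above the stricter limit. Within both limits were 3292 genes in the main fit, 963 to 1250 without 1 library and 0 with replicate number as a block. The feedback genes did not all move in the same direction, since the inhibitor gene NFKBIA and BIRC3 rose while NFKBIZ and TNFAIP3 fell.

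In HCC1937 NFKBIE was the only member past the threshold, and it fell by 0.34 ± 0.08 (SE, n = 3 and 3, adjusted p = 0.030 by limma), with all 3 CSC libraries below all 3 non-CSC libraries. That call was lost without the non-CSC library of replicate 1 or 2 (adjusted p = 0.0985 and 0.0977), without the CSC library of replicate 2 or 3 (adjusted p = 0.0782 and 0.08555) and after rescaling to a common sum (0.0843), with a range from 0.00437 to 0.0985. NFKB2 had a log2 fold change of -0.31 (95% interval -0.55 to -0.07, adjusted p = 0.067), and it passed in 4 alternatives. BIRC3 was at -0.21 (-0.40 to -0.02, adjusted p = 0.104), TNFAIP3 at -0.18 (-0.33 to -0.02, adjusted p = 0.102) and NFKBIA at -0.27 (adjusted p = 0.132). Over all alternatives adjusted p by limma was 0.0572 to 0.652 for BIRC3, 0.0536 to 0.737 for TNFAIP3 and 0.0314 to 0.311 for NFKBIA. NFKB1 was at 0.09 (95% interval -0.08 to 0.25), so that the interval lay below the log2 fold change of 1.39 in SUM149PT. RELA was at -0.00 (95% interval -0.16 to 0.15), with a sign that turned under each other scaling.

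Thus 0 of 10 members were higher in HCC1937 CSCs by limma, beside 10.3% of 15582 genes, and 1 of 10 was lower, beside 15.3%. At an unadjusted p of at most 0.05 there were 5 of 10 members, beside 37.8% of genes. The median log2 fold change was -0.18 over the members and -0.03 over all genes tested. With the further limit of 1 on the absolute log2 fold change 0 of 10 members passed, beside 8.71% of genes, and with an adjusted p of at most 0.0001 as well 0 members and 0.0% of genes passed. That 0.0% is from the main fit. Genes passing numbered 342 with a minimum of 1 FPKM and 384 with a pseudocount of 1. They numbered 399 with an eBayes trend and 883 with 1 fit over 15 libraries.

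**Figure D2:**
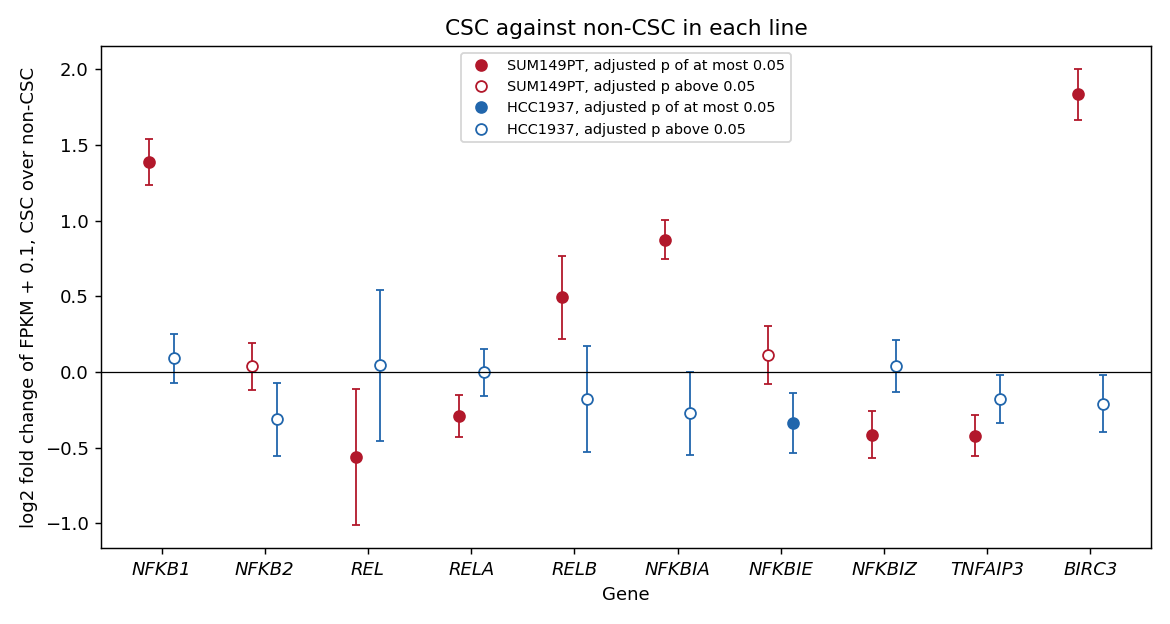
Log2 fold change of FPKM + 0.1, CSC over non-CSC, for each member in SUM149PT (red) and HCC1937 (blue), with 95% intervals from limma over 3 and 3 libraries; filled points have an adjusted p of at most 0.05. In SUM149PT BIRC3 (1.84) and NFKB1 (1.39) are highest, and in HCC1937 only NFKBIE (-0.34) is filled.

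An interaction term, fitted to the 12 sorted libraries, tested whether the CSC effect differed between the lines. It was positive, that is, higher in SUM149PT, for 6 of 10 members, beside 28.1% of 16451 genes, and negative for 3 of 10, beside 33.0%. BIRC3 differed by 2.05 ± 0.10 on the log2 scale (SE, adjusted p = 9.7e-08 by limma), NFKB1 by 1.30 ± 0.08 (adjusted p = 6.2e-07) and NFKBIA by 1.15 ± 0.12 (adjusted p = 2.1e-05). REL was not past the threshold at -0.61 ± 0.29 (adjusted p = 0.092), though it was without the CSC library of HCC1937 replicate 1 (adjusted p = 0.0379) and with a pseudocount of 1 (adjusted p = 0.0332), with a range from 0.0332 to 0.196. In either direction 9 of 10 members passed, beside 61.1% of genes. With the limit of 1 on the absolute log2 difference 3 of 10 passed, beside 30.4% of genes, and 3 of 10 also with an adjusted p of at most 0.0001, beside 17.8%. The share at the fold limit alone lies near that of all genes.

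The make-up of the subunit transcripts was described as each subunit's percent of the summed FPKM of all 5. In SUM149PT CSCs NFKB1 held 13.4% ± 0.540 and RELA 38.6% ± 0.274, and in non-CSCs they held 5.33% ± 0.289 and 49.4% ± 0.684 (SD, n = 3 each). The sum itself was 187.9 ± 6.001 FPKM in CSCs and 179.5 ± 5.18 FPKM in non-CSCs. NFKB1 therefore took a larger part, and RELA a smaller part, of a similar sum. NFKB2 and RELB, the non-canonical pair, together held 45.4%, 46.8% and 45.6% in the CSC libraries and 41.5%, 43.4% and 41.7% in the non-CSC libraries of SUM149PT. In HCC1937 they held 37.6%, 36.6% and 34.6% in CSCs and 40.01%, 43.6% and 39.2% in non-CSCs. The difference of means was 3.75 percentage points in SUM149PT and -4.63 in HCC1937, with no overlap in either line, and both had p = 0.10 in an exact two-sided permutation test, the smallest that 3 against 3 libraries can give. SUM159PT had the highest share, at 56.2%, 59.4% and 55.8%, and as NFKB2 and RELB were the members of highest GC content, the part of base composition in that share was not tested.

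**Figure D3:**
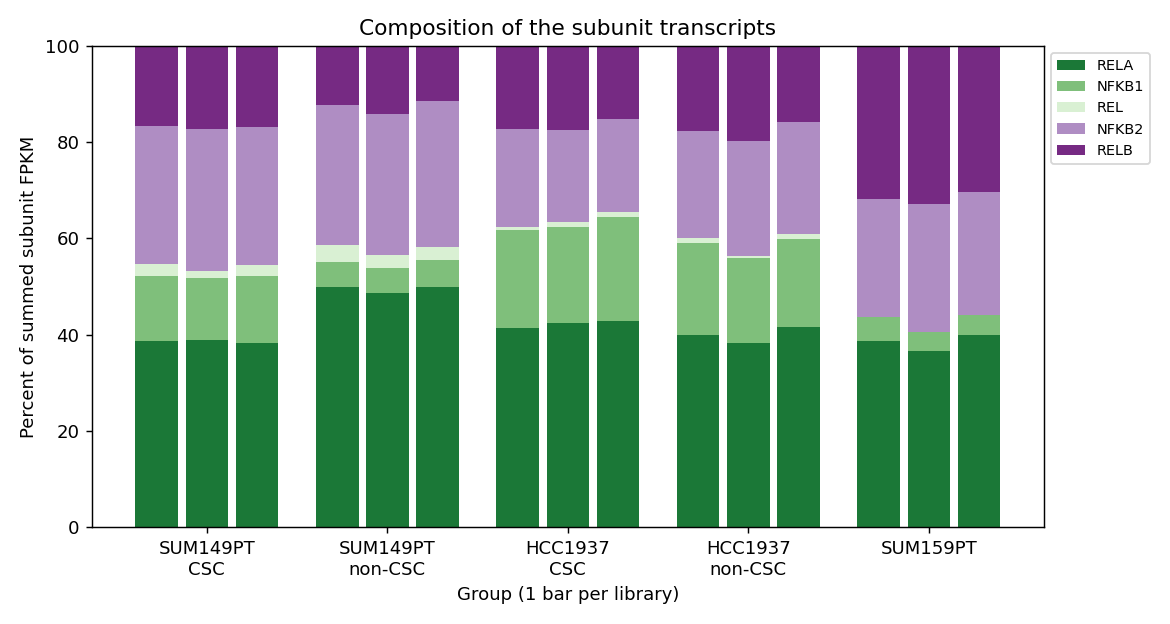
Percent of the summed FPKM of the 5 subunits in each of the 15 libraries, 1 bar per library; green shades are RELA, NFKB1 and REL and purple shades are NFKB2 and RELB. The purple part is largest in SUM159PT, from 55.8% to 59.4%, and NFKB1 takes a mean of 13.4% in SUM149PT CSCs and of 5.33% in the non-CSCs.

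The ratio of the inhibitor NFKBIA to RELA, chosen after the values were seen, was 2.42, 2.33 and 2.34 in SUM149PT CSCs against 1.07, 1.04 and 1.05 in the non-CSCs. HCC1937 had ratios of 4.17, 3.75 and 3.72 in CSCs against 5.17, 4.82 and 4.10 in the non-CSCs, and in SUM159PT 3.33, 3.55 and 2.82. The ratio was thus lowest in non-CSCs of SUM149PT, and the HCC1937 fractions overlapped. The exact two-sided permutation p was 0.10 in SUM149PT and 0.20 in HCC1937.

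Other genes of the pathway were taken from lists by role, to be read beside the shares and medians over all genes given above. Of the 20 receptors and ligands, 17 were tested in SUM149PT, with 7 higher and 8 lower in CSCs, and 14 in HCC1937, with 4 higher and 1 lower. Their median log2 fold change was -0.15 and 0.11. CD40, a receptor that signals through the non-canonical pathway, was at 3.98 ± 0.637 FPKM in SUM149PT CSCs, against 0.715 ± 0.0300 in the non-CSCs (SD, n = 3, log2 fold change 2.31 ± 0.13 SE, adjusted p = 2.4e-05 by limma). TNFRSF11A, the receptor RANK, was 5.57 ± 0.655 and 1.13 ± 0.0855 FPKM (log2 fold change 2.20, adjusted p = 1.5e-05). TLR3, a sensor of double-stranded RNA, fell by 1.06 (adjusted p = 7.2e-05), and the ligand LTA was listed at 0 in each CSC library of SUM149PT and at 2.25, 0.893 and 1.69 FPKM in its non-CSCs. TNF and LTB were listed at 0 in all 15 libraries. As the quantification step is not given, a listed 0, also that of LTA, cannot be told apart from reads that were not assigned. In HCC1937 IL1B, a ligand of the canonical pathway, was 222.2 ± 27.3 FPKM in CSCs, against 78.4 ± 5.34 in the non-CSCs (log2 fold change 1.496, adjusted p = 0.00062), and its effect differed between the lines by -2.01 (adjusted p = 5.8e-07). IL1R1, its receptor, rose by 0.97 (adjusted p = 0.00078), and TLR5, a sensor of bacterial flagellin, fell by 1.58 (adjusted p = 0.00053). The same directions were called in SUM149PT, where IL1R1 rose by 0.95 and TLR5 fell by 0.997 (adjusted p = 9.9e-05 and 0.00039).

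All 26 adaptors and kinases were tested in both lines. In SUM149PT 10 were higher and 13 lower in CSCs, with a median log2 fold change of -0.23, and in HCC1937 3 were higher and 8 lower, with a median of -0.13. TRAF3, an adaptor that holds the non-canonical kinase in check, was at 14.9 ± 0.562 FPKM in SUM149PT CSCs, against 6.26 ± 0.145 in the non-CSCs (log2 fold change 1.24, adjusted p = 1.3e-05). BIRC2, the close relative of BIRC3, was 33.5 ± 1.16 and 19.1 ± 1.35 FPKM (log2 fold change 0.81, adjusted p = 0.00017). IRAK1, a kinase below the interleukin and Toll-like receptors, was 18.5 ± 0.334 and 83.03 ± 1.38 FPKM (log2 fold change -2.16, adjusted p = 2.2e-06), and RIPK1, a kinase of the receptor complex, was 2.39 ± 0.162 and 10.4 ± 0.736 FPKM (log2 fold change -2.07, adjusted p = 8.4e-06). In HCC1937 BIRC2 was at 15.1 ± 0.544 FPKM in CSCs, against 11.6 ± 0.442 in the non-CSCs (log2 fold change 0.38, adjusted p = 0.0113), a call lost without the non-CSC library of replicate 2 (adjusted p = 0.0505, range 0.000944 to 0.0505). The adaptors TRAF5 (log2 fold change 0.9975, adjusted p = 0.011), MYD88 (-0.81, adjusted p = 0.0012) and TAB3 (-0.60, adjusted p = 0.0082) were also called in HCC1937, though the call of TAB3 was lost after rescaling to a common sum (adjusted p = 0.0645, range 0.000974 to 0.0645). MYD88 also fell in SUM149PT, by 1.68 (adjusted p = 3.5e-05). TRAF5 went the other way in SUM149PT, and its effect differed between the lines by -2.19 (adjusted p = 8.6e-06).

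Of 18 other inhibitors and modulators, 17 were tested in each line. In SUM149PT 9 were higher and 3 lower in CSCs, with a median log2 fold change of 0.34, and in HCC1937 2 were higher and 2 lower, with a median of -0.10. OTULIN, an enzyme that removes linear ubiquitin chains, was at 16.3 ± 0.994 FPKM in SUM149PT CSCs, against 4.83 ± 0.192 in the non-CSCs (log2 fold change 1.74, adjusted p = 8.5e-06). TNIP3, a partner of TNFAIP3, rose by 1.13 (adjusted p = 0.0002), and in HCC1937, where it was below the 1 FPKM asked of other named genes, by 1.98 (0.739 ± 0.0712 FPKM in CSCs, against 0.114 ± 0.0431, adjusted p = 0.00076). ZC3H12A, a ribonuclease that degrades inflammatory transcripts, was 24.1 ± 0.548 and 85.98 ± 2.27 FPKM (log2 fold change -1.83, adjusted p = 3.6e-06), and NFKBID, an atypical IkappaB protein, fell by 0.99 (adjusted p = 0.0034). In HCC1937 the ubiquitin ligase ITCH fell by 0.59 (adjusted p = 0.0026). CYLD (log2 fold change 0.24, adjusted p = 0.043) and TAX1BP1 (-0.28, adjusted p = 0.049) passed the threshold, and both calls were lost when any 1 of the 6 libraries was left out, with adjusted p over all alternatives from 0.0214 to 0.145 and from 0.0183 to 0.398.

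Of 30 textbook target genes, 28 were tested in SUM149PT, with 11 higher and 13 lower in CSCs and a median log2 fold change of -0.59, and 27 in HCC1937, with 8 higher and 9 lower and a median of -0.16. The chemokine CXCL1 was at 24.5 ± 3.30 FPKM in SUM149PT CSCs, against 632.03 ± 31.6 in the non-CSCs (log2 fold change -4.69, adjusted p = 2.3e-06), whereas in HCC1937 it rose by 1.77 (adjusted p = 0.00097), a difference between the lines of -6.46 (adjusted p = 1.0e-08). LCN2, an iron-carrier binding protein, was 93.4 ± 4.57 and 2361 ± 167.8 FPKM (log2 fold change -4.66, adjusted p = 1.5e-06). The adhesion molecule VCAM1, at 2.72 ± 0.107 and 0.399 ± 0.171 FPKM, and the cytokine CSF2, at 89.4 ± 6.07 and 16.2 ± 3.31 FPKM, rose (log2 fold change 2.55 and 2.48, adjusted p = 0.00019 and 3.8e-05). In HCC1937 LCN2 also fell, by 2.29 (adjusted p = 0.00014), and the acute-phase gene SAA1 fell by 1.58 (adjusted p = 0.00068), while IL6 and PTX3, secreted mediators of inflammation, rose by 2.07 and 2.05 (adjusted p = 0.00054 and 0.00035). In SUM149PT SAA1 fell by 2.85, IL6 rose by 1.02 and PTX3 rose by 1.55 (adjusted p = 7.2e-06, 0.00029 and 0.00018), the same directions as in HCC1937. The targets moved in both directions in each line, as the members did in SUM149PT, and so did genes at large. Of all genes tested, 33.3% were higher and 41.5% lower in SUM149PT CSCs, and 10.3% and 15.3% in HCC1937 CSCs.

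**Figure D4:**
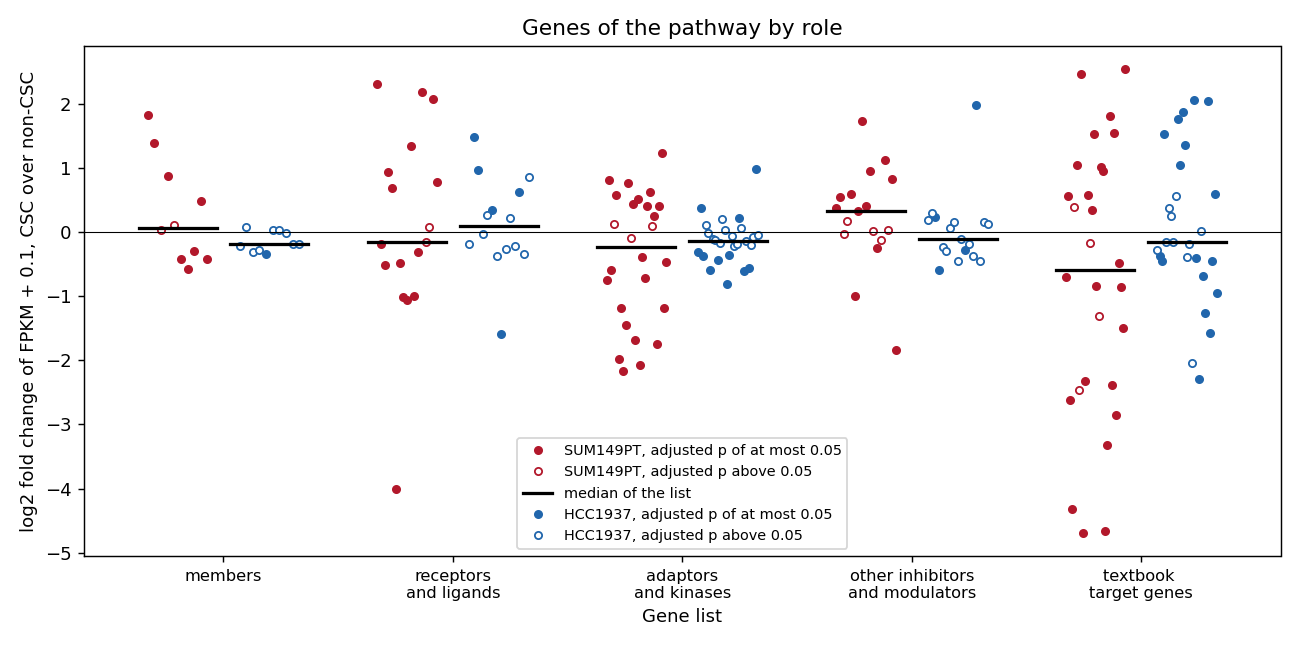
Log2 fold change of FPKM + 0.1, CSC over non-CSC, for the genes tested of each list in SUM149PT (red) and HCC1937 (blue); filled points have an adjusted p of at most 0.05 and black bars are medians. Textbook target genes spread most in SUM149PT, around a median of -0.59, and the lowest receptor or ligand point is LTA, listed at 0 in those CSCs.

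The fractions were checked against their sort markers. CD24 fell by 4.15 on the log2 scale in SUM149PT CSCs and by 2.67 in HCC1937 CSCs (adjusted p = 1.4e-06 and 0.00013 by limma). CD44 rose by 0.39 in SUM149PT (84.4 ± 2.08 FPKM in CSCs, against 64.5 ± 2.86, SD, adjusted p = 0.0017). In HCC1937 it was not past the threshold, at 106.3 ± 6.33 FPKM in CSCs against 97.8 ± 3.98 (log2 fold change 0.12, adjusted p = 0.31). SUM159PT, treated as CSCs, had the lowest deposited CD44 level at 28.8 ± 0.542 FPKM. The summed FPKM of 4 epithelial markers was 79.9, 86.4 and 82.98 in SUM149PT CSCs against 535.7, 529.8 and 538.4 in the non-CSCs, and 502.6, 466.4 and 418.4 against 1403, 1421 and 1212 in HCC1937, with KRT18 or KRT8 the most abundant. The summed FPKM of 4 mesenchymal markers was 2338, 2485 and 2397 against 455.9, 447.4 and 508.0 in SUM149PT and 1077, 946.5 and 922.8 against 140.5, 210.9 and 185.6 in HCC1937, mostly VIM except in SUM149PT non-CSCs, where FN1 was near its level (means 222.6 and 243.8 FPKM). These sums moved with the fractions in both lines, and their part in the differences of the members was not tested. Of the 4 leukocyte markers CD3E was listed at 0 in all 15 libraries, and 3 had a mean under 1 FPKM in every group. CD68, which many cell types express, made up nearly all of that list's sum, and it fell by 1.57 in SUM149PT (16.2 ± 0.219 FPKM in CSCs, against 48.3 ± 1.43, adjusted p = 5.1e-06). The 4 endothelial markers summed to 0.171, 0.162 and 0.171 FPKM in SUM149PT CSCs against 1.59, 1.83 and 1.72 in the non-CSCs, and to less than 1 FPKM in every other library. VWF, CDH5 and PECAM1 fell there by 2.48, by 2.70 and by 1.20, and the part of these shifts in the differences of the members was not tested. The fibroblast list was led by COL1A1, at a mean of 216.0 FPKM in SUM149PT CSCs against 49.04 in the non-CSCs, and of 11.04 against 6.76 in HCC1937. In SUM149PT COL1A1 and PDGFRB rose by 2.14 and 3.10 on the log2 scale, while DCN fell by 3.10 (1.801 against 16.2 FPKM) and LUM fell by 0.88 (0.165 against 0.391 FPKM), so the 4 fibroblast markers did not move together.

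By Pearson's r of log2(FPKM + 0.1) over the 15 libraries, which share lines, fractions and base composition, the member most like another was NFKB2, at r = 0.993 with NFKBIE. NFKB2 and RELA had r = 0.960, as had RELA and NFKBIE, while RELB and TNFAIP3 had r = -0.926. NFKBIZ went with REL (r = 0.902), BIRC3 (r = 0.895) and TNFAIP3 (r = 0.893), all of them lowest in SUM159PT. Among the 12164 genes whose mean reached 1 FPKM, the gene most like each member was HNRNPA1 for NFKB1 (r = 0.988), SLC31A1 for REL (0.990), NEO1 for RELA (0.994), TMUB1 for RELB (0.987) and UBALD2 for NFKBIA (0.980). It was NFKBIE for NFKB2, RIPK4 for NFKBIE (0.995), TFB2M for NFKBIZ (0.998), INTS8 for TNFAIP3 (0.998) and PSD3 for BIRC3 (0.996). HNRNPA1 has many processed pseudogenes, so its own values are uncertain. These r values describe the pattern over 5 groups and carry no test.

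SUM159PT stood apart from the other libraries. Its FPKM summed to 634746.2 to 652081.7 over genes, against 291276.5 to 366532.5 in the sorted libraries. It had 8534 to 8670 genes above 1 FPKM, where the sorted libraries had 11249 to 11997. The difference of log2(FPKM + 0.1) between SUM159PT and SUM149PT CSCs rose with the GC content of transcripts (Spearman's rho 0.633 across 11192 genes, which are not independent replicates), from a median of -3.12 in the lowest of 10 equal bins of GC content to 0.95 in the highest. GC content was 34.8% for BIRC3, 38.7% for REL, 46.2% for NFKBIZ, 49.5% for TNFAIP3 and 50.1% for NFKB1. It was 53.1% for NFKBIA, 57.1% for RELA, 61.0% for NFKBIE, 62.4% for NFKB2 and 65.4% for RELB. The 5 members of lower GC content were thus those with the lowest SUM159PT levels relative to SUM149PT CSCs.

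Set beside genes of like GC content, the members differed among themselves. NFKBIZ differed by -4.79 between SUM159PT and SUM149PT CSCs, where the median of its bin of GC content was -1.14. BIRC3 differed by -5.43 beside a median of -3.12, TNFAIP3 by -2.67 beside -0.46, REL by -4.36 beside -2.86 and NFKB1 by -1.73 beside -0.46. RELB, at 0.78 beside a median of 0.95, and NFKBIA, at 0.32 beside 0.21, lay near the medians of their bins. NFKB2, in the bin of RELB, differed by -0.30 beside 0.95, NFKBIE by -0.47 beside 0.67 and RELA by -0.13 beside 0.67. Against HCC1937 CSCs these 3 lay above the medians of their bins, NFKB2 by 0.56, NFKBIE by 1.39 and RELA by 0.40, as did RELB by 1.12, REL by 0.68, NFKBIA by 0.42 and BIRC3 by 0.32. NFKBIZ, TNFAIP3 and NFKB1 lay below in both comparisons. The part of GC content in the SUM159PT levels was not tested, and within the sorted lines the trend was smaller, with rho of -0.122 in SUM149PT and -0.185 in HCC1937 for CSCs against non-CSCs. Between the fractions of SUM149PT, RELA differed by -0.29 beside a bin median of -0.17. RELB differed by 0.49 and NFKB2 by 0.04, both beside a median of -0.26.

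**Figure D5:**
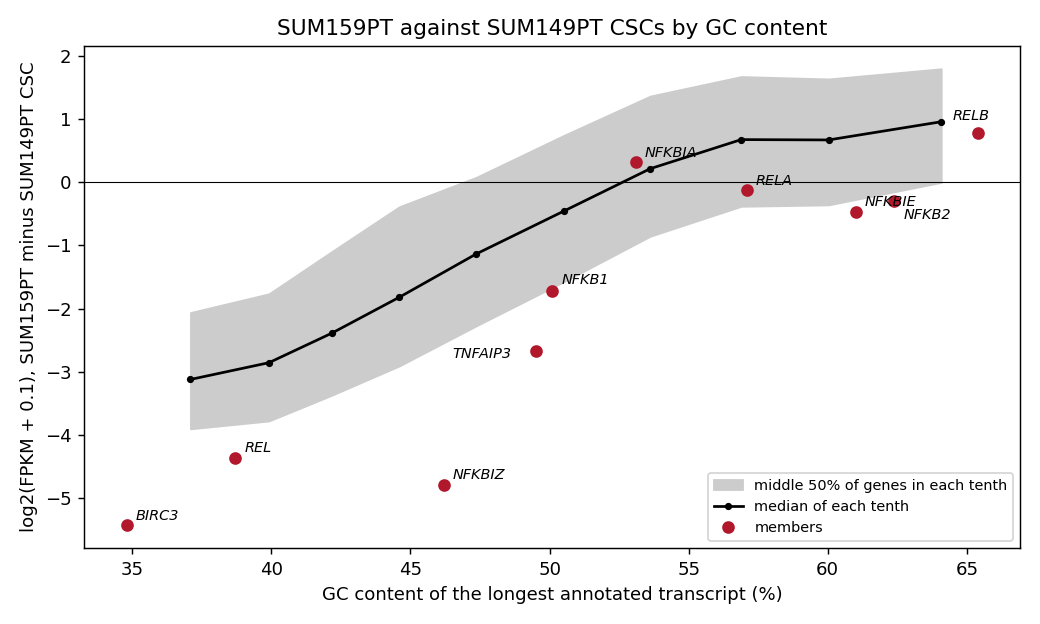
Difference of log2(FPKM + 0.1) between SUM159PT and SUM149PT CSCs (group means of 3 libraries) against the GC content of the longest annotated transcript; the line joins medians of 10 equal bins of 11192 genes, the band holds the middle 50% of each bin, and red points are the 10 members. NFKBIZ (-4.79), BIRC3 (-5.43) and TNFAIP3 (-2.67) are among the members below the band, and RELB (0.78) lies near the median.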

How the data were processed

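The table that the authors deposited gives FPKM for 33158 symbols. The submitters' processing notes name Bowtie2 and GRCh38, and the quantification step and any normalization between libraries are not given in the sources used here. All columns were matched to a library by title. No shared step was found among low values. The depth is therefore unknown, and precision rests on 3 libraries per group.

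Log2(FPKM + 0.1) was fitted with limma 3.58.1 in R 4.3.3 within each line for genes whose mean reached 0.1 FPKM, and the interaction over 12 libraries. P-values were adjusted over all genes (Benjamini-Hochberg) and genes called at 0.05. Fold changes on this scale understate changes of low genes. The model was tested on simulated data with independent noise and few changed genes. In SUM149PT most genes were called, so that test cannot vouch for the calls here. Alternatives were the pseudocount, minimum, scaling, eBayes trend, all libraries, replicate block, fold limits and each library left out. The NFKBIA to RELA ratio and the comparison with genes of like GC content were chosen after seeing the data. Promoters came from RefSeq (GRCh38.p14). Besides the members, the genes named were up to 2 per list, line and direction with the largest change among those called, with a fraction's mean reaching 1 FPKM and no overlap, and the most alike gene per member. The marker genes, and TNF and LTB, which were listed at 0 in every library, were named outside this rule. Some genes named in 1 line were also given in the other. GC content came from GENCODE release 29, matched by symbol for 92.0% of 12164 genes and all 10 members. Further tools were scipy 1.17.1, numpy 2.4.6 and pandas 2.3.3 under Python 3.11.15, with figures by matplotlib 3.10.9. Members and lists were chosen with earlier results of these data known.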

Additional observations from a re-analysis of the deposited data

Results flagged for a closer look

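The effect of the CSC fraction differed between SUM149PT and HCC1937 for 9 of 10 members, by the limma interaction over 12 libraries at an adjusted p of at most 0.05, beside 61.1% of all 16451 genes tested. The difference, SUM149PT minus HCC1937 on the log2 scale, was 2.05 for BIRC3, 1.30 for NFKB1 and 1.15 for NFKBIA, which all rose in SUM149PT CSCs only by the tests within lines. It was 0.67 for RELB, 0.45 for NFKBIE and 0.35 for NFKB2, whose call was lost with replicate number as a block (adjusted p = 0.0631). It was -0.46 for NFKBIZ, -0.29 for RELA and -0.24 for TNFAIP3, whose call was lost with quantile normalization (adjusted p = 0.0555) and with 1 fit over all 15 libraries (0.0527), over a range from 0.00467 to 0.0555. NFKBIE and NFKB2 were not called in SUM149PT, so their differences rest on both lines' values together.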

How the results depend on the processing

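In SUM149PT 8 members were called, and 2 with a limit of 1 on the absolute log2 fold change, alone or with the study's stricter adjusted p; other settings gave 7 or 8. In HCC1937 1 member was called, against 2 with a pseudocount of 1, a minimum of 1 FPKM or an eBayes trend, 3 with 1 fit over 15 libraries, and 0 after rescaling to a common sum or at either fold limit; leaving out a library gave 0 to 1. For the line difference 9 were called, 3 at either fold limit (beside 30.4% and 17.8% of genes), 10 with a pseudocount of 1, where REL was gained (adjusted p = 0.0332, range 0.0332 to 0.196), 9 to 10 without a library, and 8 with quantile normalization or 1 fit over 15 libraries, where TNFAIP3 was lost (adjusted p = 0.0555 and 0.0527, range 0.00467 to 0.0555). The cause of these changes was not tested, other than the limits themselves.

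Signs turned for values near 0. RELA in HCC1937 was 0.0569 with upper quartile scaling, 0.0486 with quantile normalization and 0.12 after rescaling, and -0.0271 to 0.0135 without a library. Leaving out a library gave -0.00186 to 0.0588 for NFKB2 in SUM149PT, and in HCC1937 -0.11 to 0.206 for REL and -0.00183 to 0.0727 for NFKBIZ. Chosen after seeing the data, the difference from genes of like GC content turned the sign of SUM159PT against SUM149PT CSCs for RELB (-0.17) and against HCC1937 CSCs for REL (0.68) and BIRC3 (0.32).

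The order of the 5 group means was the same as in the deposited values for 7 of 10 members after rescaling and 5 with upper quartile scaling, and that of the 4 sorted groups for 8 of 10 under each, with RELA and NFKBIA changed. Quantile normalization moved the median of all genes in SUM149PT from -0.111 to 0.103 and calls in the higher direction from 44.6% to 54.9%. In HCC1937 rescaling moved them from -0.0316 to 0.0898 and from 40.3% to 56.1%, and quantile normalization gave 53.0%. For the line difference, quantile normalization moved the median of all genes from -0.0788 to 0.0613. Calls in the higher direction there went from 46% to 53.1%, or to 40.7% after rescaling.

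Within each sorted line, a CSC and a non-CSC library share each number in their titles. Whether such a pair came from the same sort is not stated, and the main fits were unpaired. Deviations of same-numbered libraries correlated at 0.143, 0.0223 and 0.13 in SUM149PT and -0.13, -0.0510 and -0.0280 in HCC1937. In SUM149PT 0.143 and 0.13 were above every pair of unlike numbers, so pairing by replicate number was not excluded there. In HCC1937 the highest correlation, 0.127, was between unlike numbers. With the replicate block 8 members were called in SUM149PT, 1 in HCC1937 and 8 for the line difference, where NFKB2 was lost (adjusted p = 0.0631, range 0.00477 to 0.0631); TRAF5 in HCC1937 was also lost (0.0591, range 0.000121 to 0.0591).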
